A study of Mus musculus with 7 samples.

Results

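Regions of open chromatin that were present both in untreated cells and in cells given RANKL together with I-BET were compared for how strongly and how widely they were open. The assay was ATAC-seq, which tags DNA that a transposase can reach, and the cells were RAW264.7, a mouse macrophage cell line able to form osteoclasts. The untreated group had 2 libraries and the group given RANKL (50 ng/ml) plus I-BET (500 nM) for 4 h had 2. RANKL without I-BET (4 h, 2 libraries) and I-BET without RANKL (4 h, 1 library, labelled replicate 2) are given beside them as values. No vehicle is named for the untreated cells. Whether the replicates are separate cultures is not stated, so p-values measure only the spread between these libraries, which may be technical, and every group comes from 1 transformed line.

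A member is a region with at least 1 peak in all 4 libraries, after overlapping or book-ended peaks of the 4 lists were joined. Of 265247 joined regions 46731 were members. Each was measured in each library by the highest fold of its peaks (pileup over background, as the authors' peak caller gave it) and by the summed width of its peaks. Both measures were turned into a percentile among the same 46731 regions of that library, so that 0 is the lowest and 100 the highest member. A peak's fold is the authors' own value, and it was used only for ranking within a list.

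RANKL, a cytokine of the TNF family, binds the receptor RANK on monocytes and macrophages and starts osteoclast formation through NF-kB, the AP-1 factors of the Fos and Jun families, and the regulator Nfatc1. BET proteins such as Brd2 hold acetylated histones and recruit the elongation machinery, and I-BET compounds occupy the pocket that reads the acetyl mark. Open chromatin marks promoters and enhancers at which such factors can bind, but it does not measure transcription.

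Promoters inside regions that were higher with RANKL and I-BET (as defined further on) are shown first, because there the reference sequence and the accessibility can be read together. The RefSeq table for GRCm38.p6 gives windows of 300 bases, from 250 before to 50 after a listed start, and 12610 of its 32851 windows lay whole inside a shared region. Counted as 1 window per region, 12 higher regions held a window, and 5 of these 12 (41.7%) carried the AP-1 letters TGANTCA. Among all 9272 shared regions with a window the share was 5.79%, among the 4195 of them with a GC content under 60% it was 9.18%, and among the 42 lower regions it was 4.76% (2 regions). All 32851 windows of the table held these letters in 7.81% of cases. The 12 windows are few, and without untreated replicate 1 the share was 10% of 90 windows. The windows that carried the letters belonged to Slc2a9, a urate and hexose transporter gene, and to transcripts known only by code names. Each is printed 5′ to 3′ along the gene's strand, with every match in capitals.
Slc2a9: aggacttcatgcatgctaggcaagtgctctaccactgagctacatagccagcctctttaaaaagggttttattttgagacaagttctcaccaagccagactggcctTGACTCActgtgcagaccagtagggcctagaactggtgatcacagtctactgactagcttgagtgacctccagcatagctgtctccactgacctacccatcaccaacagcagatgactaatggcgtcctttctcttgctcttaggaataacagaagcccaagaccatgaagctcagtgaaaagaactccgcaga
Gm34618: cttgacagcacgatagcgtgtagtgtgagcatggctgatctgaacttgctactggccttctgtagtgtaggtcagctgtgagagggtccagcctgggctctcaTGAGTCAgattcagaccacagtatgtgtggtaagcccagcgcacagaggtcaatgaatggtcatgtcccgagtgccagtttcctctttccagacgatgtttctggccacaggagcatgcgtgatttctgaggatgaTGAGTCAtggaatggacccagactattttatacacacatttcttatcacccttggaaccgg
Gm39608: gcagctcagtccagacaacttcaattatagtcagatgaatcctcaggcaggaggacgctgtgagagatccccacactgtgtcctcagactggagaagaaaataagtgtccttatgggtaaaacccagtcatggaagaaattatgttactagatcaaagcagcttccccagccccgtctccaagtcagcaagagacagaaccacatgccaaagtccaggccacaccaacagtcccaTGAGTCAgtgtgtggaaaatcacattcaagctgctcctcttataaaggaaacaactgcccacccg
Gm31608: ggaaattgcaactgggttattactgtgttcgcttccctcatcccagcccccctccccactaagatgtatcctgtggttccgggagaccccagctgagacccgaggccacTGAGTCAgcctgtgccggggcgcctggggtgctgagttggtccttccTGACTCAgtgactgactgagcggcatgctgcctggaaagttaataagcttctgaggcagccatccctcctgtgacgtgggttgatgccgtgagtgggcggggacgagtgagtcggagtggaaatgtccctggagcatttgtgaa
5033421B08Rik: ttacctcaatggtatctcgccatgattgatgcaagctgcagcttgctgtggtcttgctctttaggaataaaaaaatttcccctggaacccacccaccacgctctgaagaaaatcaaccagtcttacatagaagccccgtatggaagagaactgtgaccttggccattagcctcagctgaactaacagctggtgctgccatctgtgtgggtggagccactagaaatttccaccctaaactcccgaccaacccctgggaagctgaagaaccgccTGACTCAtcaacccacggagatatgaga
These windows lie at chr5:38483336-38483635 (minus strand), chr15:11964142-11964441 (minus), chr11:20898695-20898994 (minus), chr15:81216889-81217188 (plus) and chr12:8510913-8511212 (plus). Gm34618 and Gm31608 show 2 matches each and the other windows 1.

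In the Slc2a9 window's region, chr5:38482647-38484095, the fold percentile was 10.7 and 19.3 in untreated replicates 1 and 2 and 28.7 and 31.5 in RANKL+I-BET replicates 1 and 2. The Gm34618 region stood at 51.2 and 50.9 in untreated cells and at 63.3 and 67.4 with RANKL and I-BET. For Gm39608 the values were 10.7 and 33.7 and 45.9 and 57.2 in the same order. That both treated libraries lay above both untreated ones in all 3 follows from the rule by which regions were called higher. Of the other higher regions with a window, that of Clec4e, a C-type lectin receptor of macrophages, held none of the 6 motifs searched, nor did those of Ptprc, the gene of the leukocyte phosphatase CD45, and of Cldn1, a tight junction gene.

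The other motifs searched, on both strands, were CRE (TGACGTCA), E-box (CACGTG), PU.1 (GAGGAAGT), IRF (GAAA, any 2 bases, GAAA) and NF-kB (GGGA, any base, TTTCC), and none of the 6 contains another. In the 12 higher regions with a window, 0 matches to these 5 were found. Among all shared regions with a window the shares were 3.30%, 10.4%, 3.62%, 2.98% and 0.518%, in that order. At such shares, 12 windows are too few to read anything from 0. Windows in higher regions also had fewer CpG pairs, with a median of 5 per 300 bases against 18 in lower and 21 in all shared regions. Their median GC content was 48.3%, against 61.7% and 61%. Sema4g is shown for contrast, since its CpG-rich promoter lay in a lower region. Its window at chr19:44989094-44989393 (plus strand) has 30 CpG pairs and holds none of the 6 motifs.
Sema4g: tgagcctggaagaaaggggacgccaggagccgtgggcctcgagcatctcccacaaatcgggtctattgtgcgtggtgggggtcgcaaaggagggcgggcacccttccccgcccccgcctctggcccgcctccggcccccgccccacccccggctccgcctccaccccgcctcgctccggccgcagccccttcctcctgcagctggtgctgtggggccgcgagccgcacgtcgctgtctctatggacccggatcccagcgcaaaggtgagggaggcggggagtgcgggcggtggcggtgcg

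The libraries differed in depth as far as the lists show it. In each list the folds and p-values fitted 1 constant background, 2.55 and 1.81 reads of pileup in untreated replicates 1 and 2, and 3.92 and 13.8 in RANKL+I-BET replicates 1 and 2. Read totals are not given, and this constant stands in for them. Peak numbers ran from 117175 to 166369. Untreated replicate 1 stood apart, with 25.3% of its peaks at a -log10 q of 5 or more, against 61.3% in untreated replicate 2 and 48.1% and 73.96% in the RANKL+I-BET libraries, called treated below. RANKL+I-BET replicate 2 stood apart in another way, with 1 peak in 96.6% of members against 79.2% to 83.02% in the other 3 libraries compared, and 29.1% of its peaks in members against 42.8% to 48.6%, which bears on summed widths. Both treated libraries had a higher background than both untreated ones, so depth and treatment cannot be told apart. The median summed width of a member was 591 and 849 bp in untreated cells and 758 and 1124 bp with RANKL and I-BET, so bp are not comparable between libraries and ranks were used. Of the myeloid list 27 of 27 genes had a shared region within 100 kb. For B and T lymphocyte markers it was 6 of 11 and 8 of 12. For fibroblast and osteoblast markers it was 6 of 15, and for granulocyte and erythroid markers 9 of 16. Over all protein-coding genes 14286 of 21883 had one, and AP-1 and early response genes, of no single lineage, were complete too (25 of 25). The myeloid count is thus not particular to myeloid genes and does not check the cell type.

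Libraries of 1 replicate number ranked the regions most alike in the pair numbered 2. Across regions, which are not independent, the fold percentiles of untreated replicate 2 and RANKL+I-BET replicate 2 had a correlation of 0.948, above the 0.790 between the untreated replicates and the 0.878 between the treated ones. Untreated replicate 1 and RANKL+I-BET replicate 1 had 0.869. The median distance between the untreated replicates was 10.9 percentile points, against 5.18 between the libraries numbered 2 and 7.72 between those numbered 1. The median region thus differed more between the untreated replicates than between treated and untreated libraries of 1 number.

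No single region passed limma's test between these groups of 2 libraries. With limma on normal scores of the ranks and Benjamini-Hochberg adjustment over 46731 regions, 0 regions (0%) had an adjusted p under 0.05 in the fold rank (lowest adjusted p = 0.99998) and 0 (0%) in the width rank (lowest adjusted p = 0.99994). An unadjusted p under 0.05 was reached by 647 regions in the fold rank (1.38%), 417 of them higher and 230 lower with RANKL and I-BET, and by 926 in the width rank, 671 wider and 255 narrower. These counts of 0 changed when either untreated library was left out. Without untreated replicate 2, limma called 630 regions higher and 50 lower in the fold rank, and without untreated replicate 1 it called 11 higher and 0 lower, with the lone untreated library assumed to vary like the others. An exact permutation test of 2 libraries against 2 cannot give a two-sided p under 0.3333, so single regions are described by their values in each library.

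**Figure D1:**
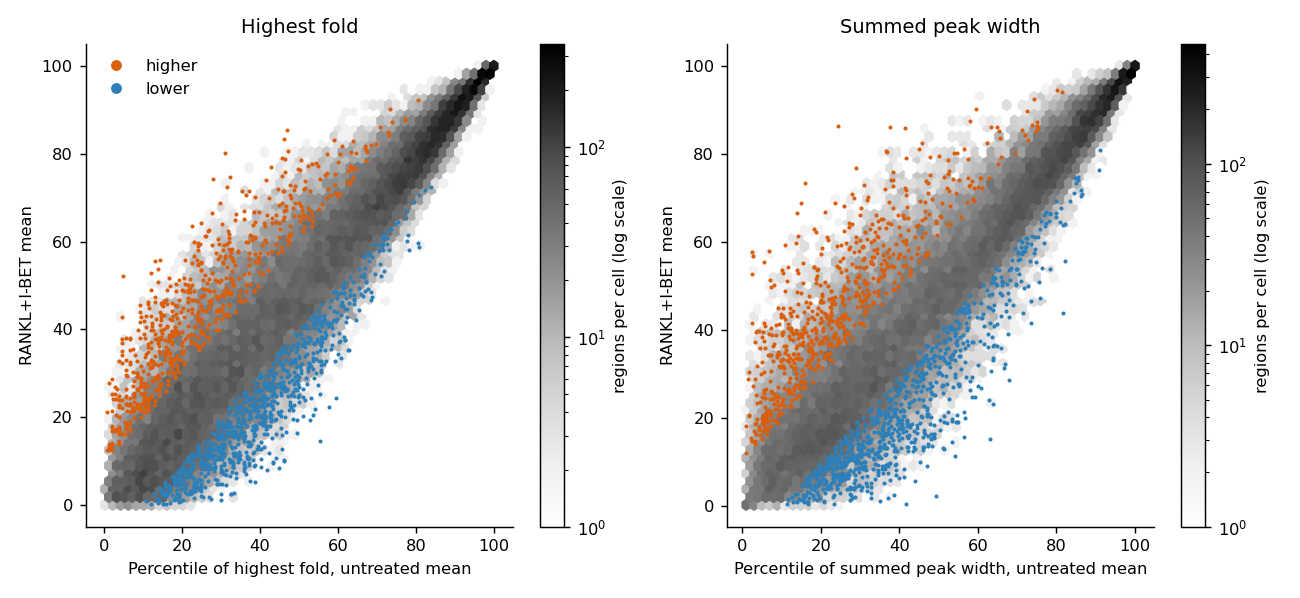
Mean percentile of the highest fold (left) and of the summed peak width (right) of each shared region, with untreated cells on the x axis and RANKL+I-BET on the y axis. Grey cells count all 46731 regions on a log scale, and coloured points are the 678 higher and 844 lower regions, most of which lie in the lower and middle part of the ranking.

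In the fold rank both treated libraries were above both untreated ones in 5664 regions (12.1%) and below both in 6925 (14.8%). In the width rank they were above in 5272 (11.3%) and below in 7038 (15.1%). Regions are called higher or lower here when the groups did not overlap in both ranks, in the same direction, with group means at least 10 percentile points apart in each. By this rule 678 regions were higher (1.45%) and 844 lower (1.81%) with RANKL and I-BET. Counting only peaks whose -log10 q reached 5, 340 regions were higher and 313 lower of 28900, so that higher regions were then the more numerous. Among the 30479 regions with 1 peak in each library, 591 were higher and 784 lower. Without untreated replicate 1, which then leaves 1 untreated library, 1918 were higher and 1894 lower.

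The region with the widest separation among those higher lay inside Maml2, which encodes a coactivator of Notch signalling, at chr9:13608297-13609159. Its fold percentile was 1.33 and 8.32 in untreated replicates 1 and 2 and 52.6 and 51.6 in RANKL+I-BET replicates 1 and 2. The summed width was 315 and 283 bp in untreated cells and 791 and 863 bp with RANKL and I-BET. As width percentiles these were 15.7 and 4.07 in untreated and 52.3 and 34.9 in treated libraries. In the fold rank a region near the bottom in untreated cells stood in the middle in both treated libraries, a difference of 47.3 points between group means. On the normal-score scale the difference was 1.85 (limma SE 0.41, unadjusted p = 0.00290, adjusted p = 0.99998). The region was picked for its gap in these same ranks, so the unadjusted p is not evidence for it.

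Among the 12 higher regions with the widest separation were those of Mitf and Atp6v0d2, both genes with roles in osteoclasts. In the lists of osteoclast transcription factors and effectors given further on, 1.30% and 1.71% of regions were higher. That is near the 1.37% of all regions assigned to a gene. Mitf encodes a transcription factor that osteoclasts need for their resorption genes, and a region inside it at chr6:97884532-97885375 had fold percentiles of 4.88 and 22.7 in untreated replicates 1 and 2 and 53.4 and 54.4 in RANKL+I-BET replicates 1 and 2. Its peaks covered 150 and 452 bp in untreated cells and 564 and 844 bp with RANKL and I-BET. In width percentiles this was 1.57 and 14.0 in untreated and 32.4 and 33.6 in treated libraries. In untreated replicate 1, 150 bp is the lowest summed width of a member, and the fold of 2.82 was near the lowest, 2.26. Low folds of that list fall in coarse steps, so regions at several genes named here share the percentile 4.88. At the Mitf region the treated libraries lay close together, and the untreated ones farther apart. Atp6v0d2 encodes a subunit of the proton pump that also serves the fusion of osteoclast precursors. Inside that gene, at chr4:19918494-19919434, the percentiles were 23.7 and 24.4 in untreated replicates 1 and 2 and 63.3 and 54.8 in RANKL+I-BET replicates 1 and 2. Its width was 394 and 551 bp in untreated cells and 891 and 856 bp with RANKL and I-BET. The width percentiles, which are comparable, were 24.9 and 25.9 in untreated and 58.2 and 34.5 in treated libraries. No overlap of the groups in either rank is what the rule asks of every higher region. The normal-score differences were 1.30 (limma SE 0.39) at Mitf and 0.93 (limma SE 0.28) at Atp6v0d2, with a limma adjusted p of 0.99998 at both. Both regions were picked for a wide gap in these same ranks, so large differences follow from the choice.

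In the sentences that follow, values of untreated replicates 1 and 2 are given first and those of RANKL+I-BET replicates 1 and 2 after "against". Camk2d, a subunit gene of the calcium and calmodulin dependent kinase CaMKII, held a region at chr3:126744331-126745749 with fold percentiles of 23.7 and 26.1 against 59.7 and 68.8. Mdfic, whose product binds and restrains transcription factors, had 4.88 and 21.04 against 54.7 and 56.4 at chr6:15780299-15781473. In Elmo1, which serves Rac activation during engulfment, the region chr13:20468364-20469156 had 29.3 and 22.7 against 65.02 and 57.3. All 3 lay inside their genes, and their treated percentiles were above the middle of the ranking. Me1, the gene of cytosolic malic enzyme, which supplies NADPH, had 17.3 and 10.2 against 47.7 and 53.9 at chr9:86624238-86625367. At Gne, which encodes the enzyme that starts sialic acid synthesis, the region chr4:44083657-44084421 covered a listed start site and had 10.7 and 12.02 against 40.6 and 50.9.

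The others were Zmiz1 (a transcriptional coactivator gene, region 45309 bp from the gene), Gsap (30255 bp away), Ranbp6 (an importin family gene, 36507 bp away) and, inside its gene, Prrx1, a homeobox gene of mesenchymal cells. The Ranbp6 region, chr19:29849481-29851773, had the largest difference between group means of these 12, at 49.1 points. It stood at 17.3 and 44.9 in untreated and at 71.98 and 88.3 in treated libraries, and its summed width was only 165 bp in untreated replicate 1 against 1559 bp in replicate 2. Over the 12 regions the gap between the nearest libraries of the groups ran from 27.1 to 43.2 points.

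**Figure D2:**
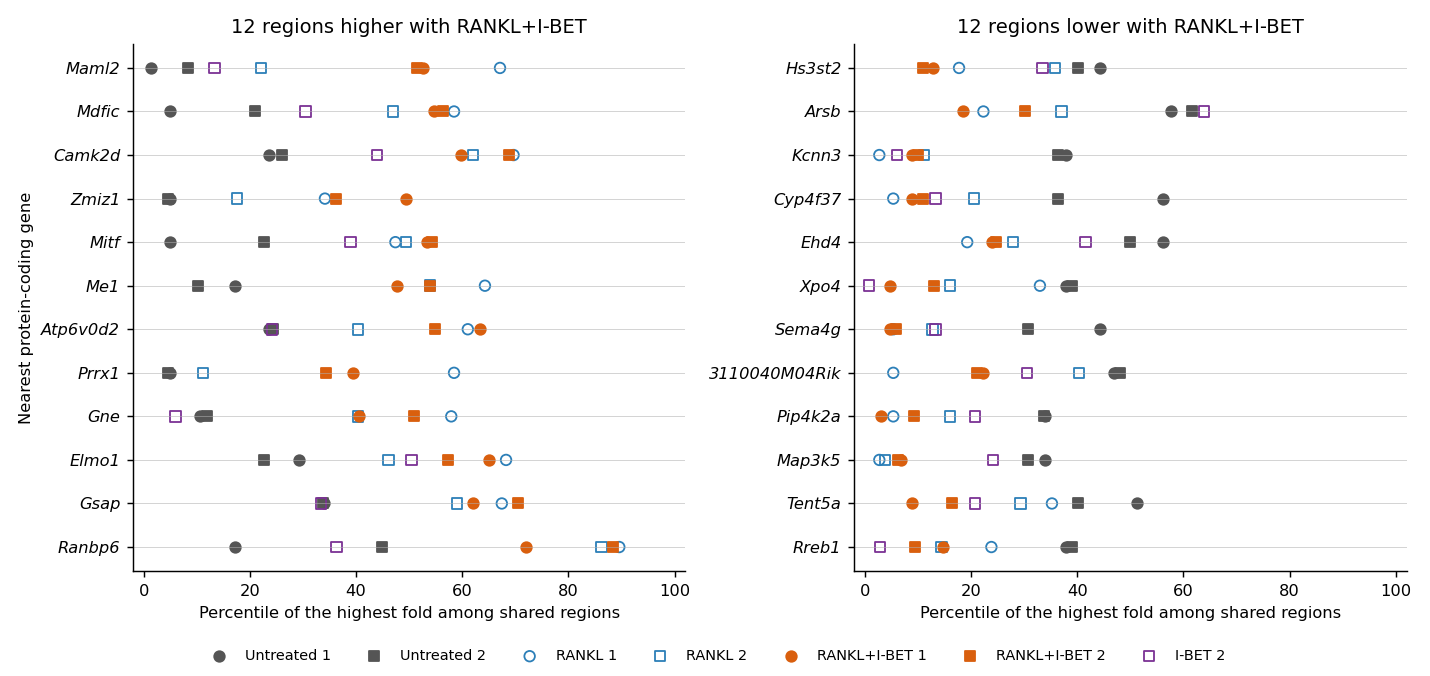
Percentile of the highest fold (x axis, 0 to 100) of the 12 higher (left) and 12 lower (right) regions with the widest separation, named by the nearest protein-coding gene. Filled symbols are the untreated and RANKL+I-BET libraries that defined the order, and open symbols the RANKL and I-BET libraries. In each row the filled symbols of the groups do not overlap, as the rule requires.

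Lower regions with the widest separation lay at genes of several kinds. The first, chr7:121516779-121517804, was 15011 bp from Hs3st2, which encodes a heparan sulfate sulfotransferase, and had percentiles of 44.3 and 40.2 in untreated replicates 1 and 2 and 12.8 and 10.98 in RANKL+I-BET replicates 1 and 2. Its width was 595 and 951 bp in untreated cells and 712 and 865 bp with RANKL and I-BET, so the widths in bp overlapped and only their ranks did not. Arsb encodes the lysosomal enzyme arylsulfatase B, and the region inside it at chr13:93782541-93783424 had 57.6 and 61.6 in untreated and 18.5 and 30.2 in treated libraries. At Map3k5, the gene of the stress kinase ASK1, the region chr10:20056209-20056816 had 33.98 and 30.7 against 6.77 and 6.22. Treated percentiles were near the bottom of the ranking at Map3k5, and lower still at Sema4g.

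Sema4g, a semaphorin gene, held its lower region over a listed start site at chr19:44988715-44989826, the promoter printed above, with 44.3 and 30.7 in untreated and 4.78 and 5.96 in treated libraries. Ehd4, which serves endocytic recycling, had 56.2 and 50.02 against 23.9 and 24.7 inside the gene at chr2:120136912-120137867. Near Rreb1, a zinc finger gene responsive to Ras signalling, chr13:37954235-37954823 had 37.9 and 38.97 against 14.8 and 9.54. In these 3 regions the treated libraries stood below percentile 25, and the untreated ones between 30.7 and 56.2. The others were at Kcnn3 (a potassium channel gene), Cyp4f37 (a cytochrome P450 gene), Xpo4 (an exportin gene), Pip4k2a (a phosphoinositide kinase gene), Tent5a and 3110040M04Rik. Gaps of the 12 ran from -23.2 to -27.4 points, and group means differed by -25.9 to -36.4 points.

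The RANKL and I-BET libraries took no part in choosing or classing these regions. Their percentiles were taken over the members in which each had a peak, 97.6% and 97.9% in RANKL replicates 1 and 2 and 94.96% in I-BET replicate 2. In the 678 higher regions the median fold percentile was 17.3 and 26.1 in untreated cells, 45.9 and 43.2 with RANKL and I-BET, 47.4 and 39.8 with RANKL without the inhibitor, and 30.5 with I-BET without RANKL. In the 844 lower regions the medians were 44.3 and 35.1 in untreated cells, 16.7 and 23.5 with both agents, 19.3 and 25.1 with RANKL, and 27.4 with I-BET. Both RANKL medians lay on the side of the RANKL+I-BET libraries in both classes, and the I-BET median lay between the untreated and the RANKL+I-BET values. The classes were chosen partly by low or high untreated percentiles. A library outside the rule would therefore tend to lie on the treated side by that choice alone, so these directions are not independent agreement. RANKL and RANKL+I-BET are set against the same untreated libraries here, and I-BET had 1 library, so these are values side by side without a test.

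**Figure D3:**
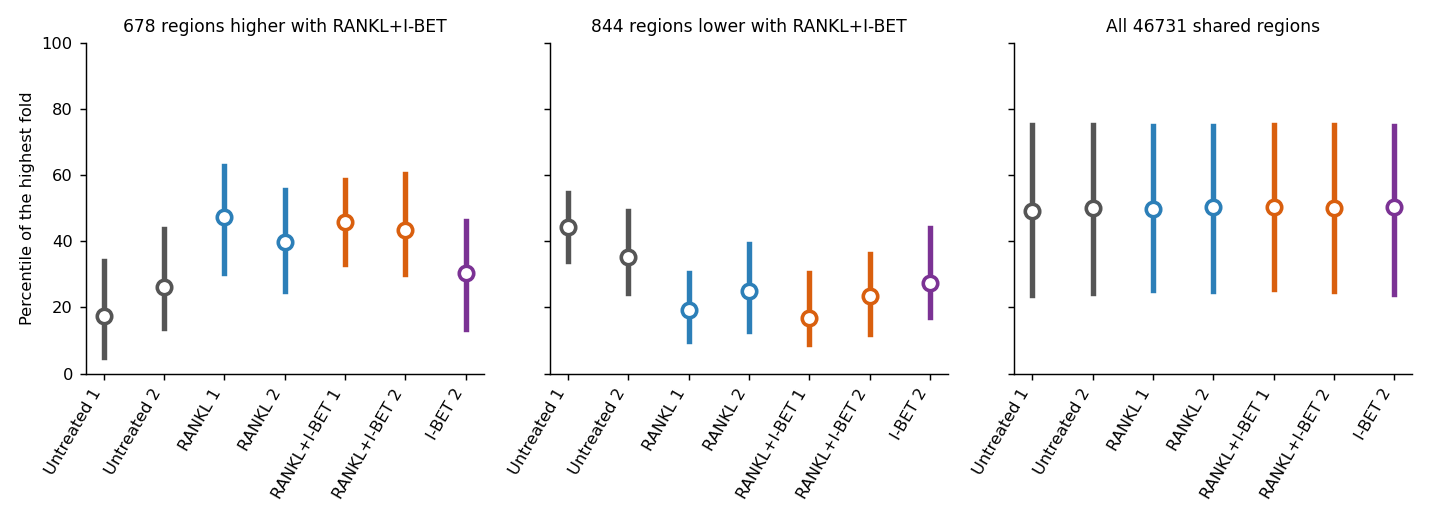
Percentile of the highest fold (y axis) in each of the 7 libraries for the 678 higher, the 844 lower and all 46731 shared regions. Circles are medians and bars run from the first to the third quartile, and the RANKL medians of 47.4 and 39.8 in higher regions stand near the RANKL+I-BET ones.

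Single regions did not all follow the medians. At Maml2 the percentiles were 67.1 and 22.1 in RANKL replicates 1 and 2 and 13.4 in I-BET replicate 2, so the RANKL replicates were far apart. The Mitf region had 47.4 and 49.4 with RANKL and 39.005 with I-BET, and the Atp6v0d2 region 61.05 and 40.4 and 24.2. At Atp6v0d2 the I-BET value was thus at the untreated level of 23.7 and 24.4, while at Mitf it lay above both untreated values. The regions at Zmiz1, Me1 and Prrx1 had no peak in the I-BET library. Among lower regions, that inside Arsb had 22.3 and 37.02 with RANKL and 63.8 with I-BET, the latter above both untreated libraries. The Map3k5 region had 2.73 and 3.81 with RANKL, below the RANKL+I-BET libraries, and 24.2 with I-BET.

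Higher and lower regions differed in where they lay, which the rule did not use. Gene ends (up to 1 kb from the start or end of a protein-coding gene) held 28 of 678 higher regions, 4.13% (95% interval by Clopper-Pearson 2.76% to 5.91%, counting error only). Of the lower regions 106 of 844 lay there, 12.6% (10.4% to 14.99%), and of all shared regions 25.8%. Leaving out 1 library moved the share of higher regions to 6.18% to 8.45%, highest without untreated replicate 1, so it moved by more than the counting interval, and that of lower regions to 12.3% to 17.7%. All of these stayed below the share of all shared regions. Higher regions were also farther from a gene end, with a median distance of 21383 bp against 10620.5 bp in lower and 8375 bp in all shared regions, and 8.85% of them had no protein-coding gene within 100 kb, against 2.13% and 3.50%. The shares inside genes were 55.01%, 57.1% and 65.8%. Median region lengths were 1021.5 bp, 771.5 bp and 1182 bp.

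Regions at the top of the ranking seldom met the rule and were often at gene ends. Above a mean fold percentile of 80, 65.4% of 8751 regions were at gene ends, and only 5 were higher and 0 lower. The 4 libraries of a region spread over a median of 8.32 points there, against 26.3 points between percentiles 20 and 40. In that band, which held 299 higher and 409 lower regions, 3.68% of the higher and 8.80% of the lower regions were at gene ends, beside 10.2% of all. From 0 to 20, with 136 higher and 203 lower regions, the shares were 2.94%, 13.8% and 11.4%, in the same order. Between 40 and 60 they were 5.81%, 18.04% and 14.5%. From 60 to 80, where 66 regions were higher and 38 lower, they were 4.55%, 18.4% and 31.4%. Higher regions were thus below the share of all regions in each of these 4 bands, and lower regions were below it in 2 (20 to 40 and 60 to 80) and above it in the other two. With ranks taken separately among regions at gene ends and elsewhere, 743 regions were higher and 958 lower.

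**Figure D4:**
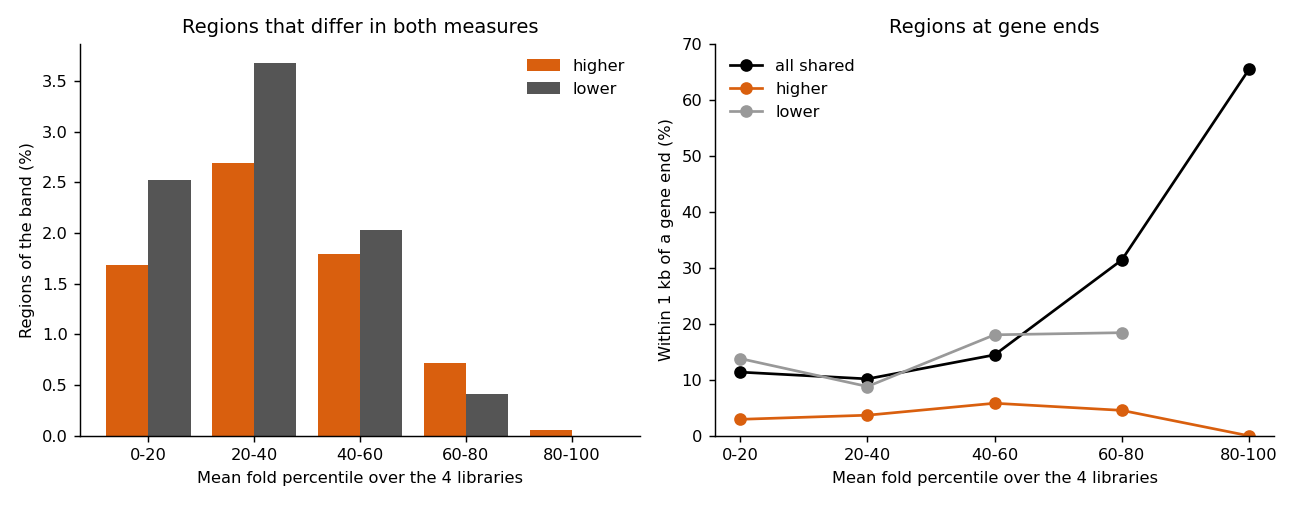
Left, percent of shared regions called higher or lower in 5 bands of the mean fold percentile. Right, percent of all, higher and lower regions at gene ends in each band; the top band holds 5 higher and 0 lower regions, and higher regions stay below 6% throughout.

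Genes were grouped by role, with each region assigned to the nearest protein-coding gene within 100 kb. Over all genes 45095 regions were so assigned, of which 1.37% were higher and 1.83% lower, with a median difference of -0.48 points in the fold percentile. The lists together had 1833 regions, 27 higher and 26 lower, shares of 1.47% and 1.42% that are close to this background. Counts by list are small and are given as descriptions.

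Genes of the RANK receptor and its proximal signalling had 114 shared regions at 19 of 19 genes, with 5 higher, 5 lower and a median difference of -0.09 points. Higher regions lay inside Tab2, an adaptor of the kinase TAK1 (chr10:7923300-7923960, 10.7 and 19.3 in untreated and 39.5 and 38.7 in treated libraries), near Pik3r1, a regulatory subunit of PI3 kinase (2 regions), near Cyld, a deubiquitinase that dampens NF-kB (44.3 and 60.97 against 63.3 and 66.8), and, outside the naming rule, inside Map3k7, which encodes TAK1. Gab2, an adaptor that binds RANK, had 3 lower regions, such as chr7:97270994-97271578 (17.3 and 13.8 against 1.54 and 7.07). Map3k14, the kinase of the alternative NF-kB pathway, had 1 (41.3 and 40.2 against 12.8 and 23.8) and Map3k7 another (57.6 and 35.1 against 22.2 and 17.7). The receptor gene Tnfrsf11a itself had 12 shared regions, and the fold ranks of the groups overlapped in all 12. Of all shared regions 12.1% were above and 14.8% below without overlap, so most overlapped. The strongest of the 12 Tnfrsf11a regions, chr1:105788213-105791354 inside the gene, had 82.4 and 96.5 against 85.1 and 96.8.

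Osteoclast transcription factors had 154 shared regions at 18 of 19 genes, with 2 higher, 1 lower and a median difference of 0.39 points. Besides Mitf, the higher region was 7979 bp from Myc, a growth regulator that BET inhibitors are known for lowering, at chr15:61998340-62000401 (56.2 and 64.1 against 70.8 and 70.004). The strongest shared region assigned to Myc, chr15:62078661-62080674, had 73.5 and 92.995 against 84.6 and 92.9, and its groups overlapped. Runx1, a myeloid regulator, had the lower region (chr16:92701921-92702628, 49.2 and 51.9 against 31.7 and 29.6). Nfatc1, the master regulator of the lineage, had 12 shared regions. Of these 0 met the rule in both measures, beside 1.45% higher and 1.81% lower of all shared regions. In the fold rank 3 were above and 1 below in both treated libraries, beside 12.1% and 14.8% of all shared regions. These 12 regions are too few to set against such shares. The strongest Nfatc1 region, chr18:80701058-80710878 inside the gene, had 85.7 and 95.9 in untreated and 90.7 and 94.8 in treated libraries, so the groups overlapped near the top of the ranking.

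Osteoclast effector genes had 117 shared regions at 19 of 21 genes, with 2 higher, 0 lower and a median difference of 0.47 points. The higher ones were those of Atp6v0d2 and of Ctsk, the gene of the collagen-degrading protease cathepsin K, at chr3:95510896-95512628, 1509 bp from the gene. The Ctsk region had 73.1 and 81.1 in untreated and 83.8 and 92.2 in treated libraries. It was 1 of 4 shared regions of Ctsk, and in the others the groups overlapped in the fold rank. The region over the Ctsk start site had 56.2 and 17.5 in untreated and 67.3 and 16.1 in treated libraries. Acp5, which encodes the tartrate-resistant phosphatase of osteoclasts, had 3 shared regions. The strongest, chr9:22142876-22143808, was below in both treated libraries, with 51.2 and 70.3 against 35.7 and 48.98 in the fold rank, without meeting the rule in width. Genes of costimulatory receptors and their signalling had 89 shared regions at 12 of 15 genes, with 2 higher, 1 lower and a median difference of -0.62 points. Both higher regions were at Vav3, an exchange factor needed for the osteoclast cytoskeleton (1.33 and 2.75 against 20.4 and 14.5 at chr3:109368166-109369404), and the lower one was 63087 bp from Syk, a kinase that these receptors activate (37.9 and 40.2 against 22.2 and 21.4).

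Negative regulators of osteoclast formation had the lowest median of the 22 lists. They had 126 shared regions at 16 of 16 genes, with 0 higher, 1 lower and a median difference of -3.38 points. In the fold rank 5 of its regions were above and 26 below in both treated libraries, 3.97% and 20.6%, beside 12.1% and 14.8% of all shared regions. Without untreated replicate 1 the shares were 15.9% and 37.3%, beside 29.6% and 33.1%. Irf8, which encodes an interferon regulatory factor known to hold back osteoclast formation, had 16 shared regions with a median difference of -7.27 points, of which 6 were below and 0 above in the fold rank. Inside Irf8 the region chr8:120745108-120745894 had 52.98 and 37.7 in untreated and 28.7 and 21.1 in treated libraries. In the RANKL libraries it had 22.3 and 16.1, and in the I-BET library 9.64, all below both untreated values. The other regions that were below lay 41405 to 88798 bp from Irf8 and were assigned to it only as the nearest protein-coding gene. Some were near the bottom of the ranking in the treated libraries, such as chr8:120798099-120798779 (17.3 and 4.52 against 1.54 and 2.2). The region over a listed Irf8 start site, chr8:120735632-120737828, had 82.2 and 66.97 against 75.002 and 63.4, and its groups overlapped. The strongest of the 16, chr8:120715023-120717232 at 19126 bp from the gene, had 81.1 and 81.9 against 76.98 and 81.9, and its groups overlapped. Of the 16 regions 0 met the rule in both measures. The 1 lower region of the list was near Cebpa (58.8 and 32.3 against 27.1 and 22.9). Cebpa is a general myeloid regulator, so its region is not read as that of an osteoclast repressor.

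Myeloid transcription factors and macrophage identity genes had 205 shared regions at 27 of 27 genes, with 3 higher, 4 lower and a median difference of -1.59 points. In the fold rank 19 were above and 42 below in both treated libraries, 9.27% and 20.5%, beside 12.1% and 14.8% of all shared regions. Without RANKL+I-BET replicate 1 the shares were 31.7% and 35.6%, beside 27.8% and 33.4%, so the myeloid share above was then larger than that of all regions and the share below was close to it. Some of these genes, Irf8 and Cebpa among them, are also in the preceding list, so the 2 counts are not independent. Zeb2, a zinc finger repressor gene, had 1 region of each kind, chr2:45089041-45091397 (44.3 and 35.1 against 54.7 and 58.2) and, over a listed start site, chr2:45112681-45114351 (61.99 and 40.2 against 33.1 and 39.2). Runx2, a regulator of bone cells, had a higher region at chr17:44654059-44655102 with 4.88 and 59.6 against 61.9 and 87.3, where the untreated replicates were themselves far apart. Irf4 had a higher region (4.88 and 27.7 against 44.9 and 36.5), and Itgam, which encodes the integrin CD11b, a lower one (64.6 and 69.7 against 41.8 and 59.7). Csf1r, the receptor gene for the growth factor of the lineage, had 3 shared regions with differences of 1.58 to 2.27 points. In all 3 the groups overlapped, as in most shared regions.

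**Figure D5:**
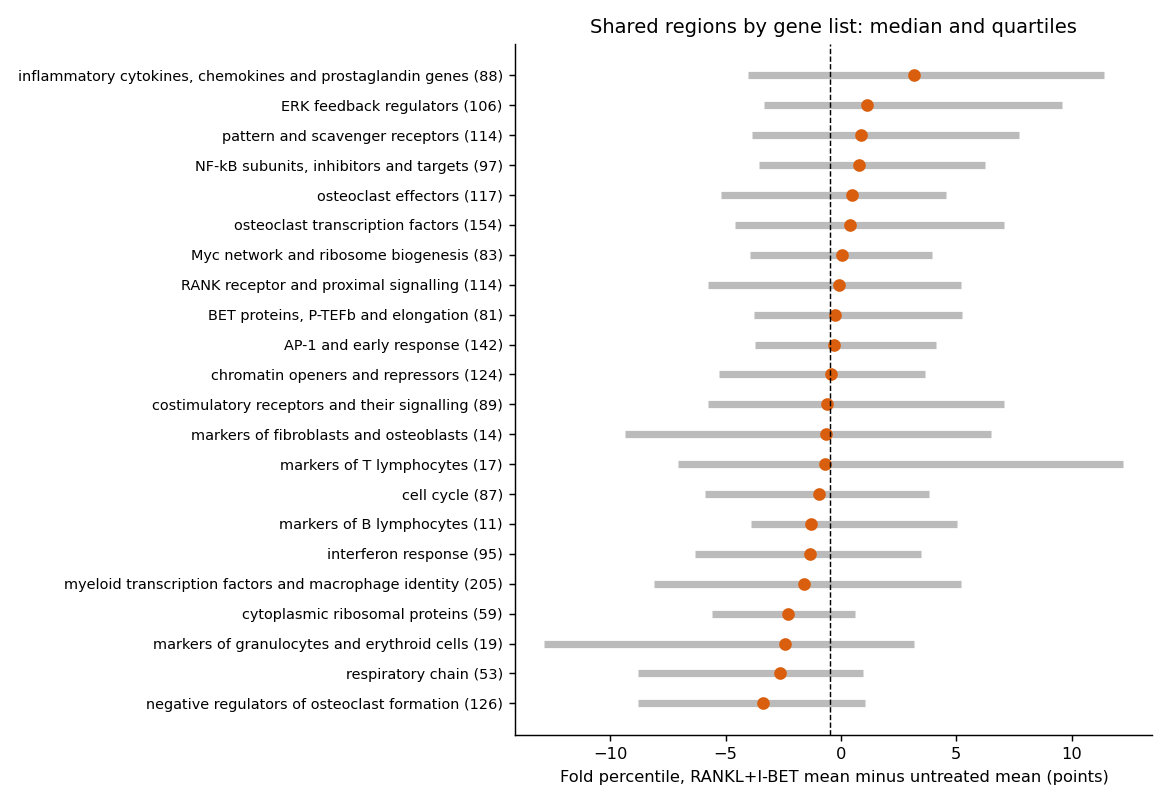
Difference of the fold percentile, mean of RANKL+I-BET minus mean of untreated, over the shared regions of each gene list; points are medians, bars run from the first to the third quartile, and the number of regions stands in brackets. The dashed line is the median over all assigned regions, -0.48 points, and list medians run from -3.38 points (negative regulators) to 3.18 points (inflammatory genes).

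Early response and NF-kB genes came next. In the AP-1 list 0.704% of regions were higher and 0.704% lower, and in the NF-kB list 0% and 0%. Of all assigned regions 1.37% were higher and 1.83% lower, so lists of this size are too small to read a low count from. AP-1 and early response genes had 142 shared regions at 25 of 25 genes, with 1 higher, 1 lower and a median difference of -0.30 points. The higher region was near Batf3, an AP-1 family gene (37.9 and 44.9 against 69.1 and 51.6), and the lower one inside Maff (62.9 and 49.1 against 38.3 and 43.4). Fos had 13 shared regions and Jun 7, of which 0 met the rule, beside 1.45% higher and 1.81% lower of all shared regions. The strongest of Fos had 99.4 and 90.9 against 99.02 and 93.6, and that over Jun 99.4 and 97.8 against 99.8 and 98.7, so both were near the top of the ranking in all 4 libraries. At Jun a region 49376 bp away, chr4:95101598-95102360, separated in the fold rank (17.3 and 15.7 against 37.04 and 45.004) but not in width. NF-kB subunits, inhibitors and targets had 97 shared regions at 21 of 24 genes, with 0 higher, 0 lower and a median difference of 0.76 points.

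ERK feedback regulators, which are induced by growth factor signals and switch them off, had 106 shared regions at 15 of 15 genes, with 3 higher, 0 lower and a median difference of 1.11 points. All 3 higher regions were near or in genes of dual-specificity phosphatases that are known to act mainly on p38 and JNK rather than on ERK. Dusp1 had chr17:26501508-26502473 with 1.33 and 6.40 against 27.1 and 20.8, Dusp10 had chr1:184048662-184049548 with 17.3 and 30.7 against 52.6 and 40.1, and Dusp8 had chr7:142088561-142090086 with 4.88 and 12.02 against 27.1 and 32.9. The Dusp1 region stood at 65.5 and 26.5 in the RANKL libraries, which lay far apart.

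Inflammatory cytokine, chemokine and prostaglandin genes had the highest median of the 22 lists. They had 88 shared regions at 22 of 27 genes, with 1 higher, 2 lower and a median difference of 3.18 points. The higher region was 18208 bp from Il1rn, the gene of the interleukin-1 receptor antagonist (chr2:24317907-24318652, 10.7 and 6.40 against 42.9 and 22.9). Lower regions were inside Lif, a cytokine of the interleukin-6 family (chr11:4258478-4259275, 77.97 and 83.6 against 61.9 and 55.7), and near the chemokine gene Ccl5 (49.2 and 36.4 against 20.4 and 34.4). Interferon response genes had 95 shared regions at 25 of 26 genes, with 0 higher, 1 lower and a median difference of -1.35 points, the lower one near Irf1 (51.2 and 51.9 against 33.1 and 38.7). Pattern and scavenger receptor genes had 114 shared regions at 24 of 24 genes, with 1 higher, 2 lower and a median difference of 0.87 points. Clec4e, which senses mycobacterial glycolipid, had the higher region over its start (chr6:123287153-123290923, 59.9 and 64.7 against 74.8 and 72.2), and Scarb1, a lipoprotein receptor gene, both lower ones.

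Genes of the inhibitor's targets and of the Myc network followed. Among 24 genes of BET proteins, P-TEFb and elongation, a lower region was 16674 bp from Ep300, a histone acetyltransferase gene (57.6 and 66.3 against 38.3 and 56.1). Over the starts of Brd2 and of Hexim1, an inhibitor of P-TEFb, the strongest regions stayed above percentile 90 in all 4 libraries: 99.3 and 93.1 in untreated replicates 1 and 2 and 98.1 and 92.1 in RANKL+I-BET replicates 1 and 2 at Brd2, and 99.6 and 95.5 in untreated and 99.6 and 97.9 in treated libraries at Hexim1. The groups overlapped at Brd2 and at Hexim1. Genes of the Myc network and ribosome biogenesis had 83 shared regions at 24 of 25 genes, with 3 higher, 1 lower and a median difference of 0.04 points, with higher regions at Myc, at Cad, which starts pyrimidine synthesis, and at Eif4e, the cap-binding factor gene.

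Ribosomal protein and respiratory chain genes had medians below that of all assigned regions. Cytoplasmic ribosomal protein genes had 59 shared regions at 31 of 34 genes, with 0 higher, 1 lower and a median difference of -2.32 points, and 64.4% of their regions were at gene ends. Respiratory chain genes had 53 shared regions at 23 of 29 genes, with 0 higher, 2 lower and a median difference of -2.63 points. The lower ones were at Cox5a and Cox4i1, subunits of cytochrome oxidase. Shared regions at gene ends as a whole had a median difference of -1.52 points, against 0.39 elsewhere. Cell cycle genes had 87 shared regions at 24 of 25 genes, with 0 higher, 2 lower and a median difference of -0.96 points, the lower ones near Cdkn2c, a CDK inhibitor gene, and Mcm5, a replication helicase gene. Chromatin openers and repressors had 124 shared regions at 24 of 26 genes, with 2 higher, 2 lower and a median difference of -0.44 points; Hdac4 (17.3 and 13.8 against 37.04 and 32.5) and Tet2 had the higher regions, Eed and Smarca2 the lower.

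Marker lists of other lineages were short, with 11 to 16 genes each, and so had few shared regions. Of all protein-coding genes 14286 of 21883 had a shared region. None of these markers was measured as RNA. B lymphocyte markers had 11 shared regions at 6 of 11 genes, with 0 higher, 0 lower and a median difference of -1.28 points. T lymphocyte markers had 17 shared regions at 8 of 12 genes, with 1 higher, 0 lower and a median difference of -0.70 points, the higher region lying inside Gata3 at chr2:9860659-9861907 (4.88 and 8.32 against 44.9 and 31.3). Fibroblast and osteoblast markers had 14 shared regions at 6 of 15 genes, with 1 higher, 1 lower and a median difference of -0.63 points, higher at Prrx1 and lower at Col1a1. Granulocyte and erythroid markers had 19 shared regions at 9 of 16 genes, with 0 higher, 0 lower and a median difference of -2.42 points.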

How the data were processed

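ATAC-seq peak lists of 4 libraries were compared (untreated, 2; RANKL+I-BET, 2), with 2 RANKL libraries and 1 I-BET library as side values. The submitters' processing notes name MACS2, Bowtie2, cutadapt and Picard among their tools and mm10 as the build; versions and settings are not given in the sources used here. The authors deposited for each library 1 peak list with, for every peak, a score (not used here), a fold (ratio of pileup to background) and the -log10 of its p-value and of its q-value. In each deposited list fold and -log10 p had the same order, so a local background does not show in the folds, and ranking by -log10 p gave the same calls.

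Joined regions, percentiles (ties share a mean rank) and distances were computed in Python 3.11.15 with pandas 2.3.3 and scipy 1.17.1. Normal scores of the percentiles were tested with limma 3.58.1 (R 4.3.3, eBayes with trend, 4 libraries, 2 residual degrees of freedom plus the prior). The fit was tried on simulated data with independent noise in each library. That setting does not cover libraries of 1 number deviating together, as described below. Regions were assigned to the 21883 protein-coding genes in RefSeq's GRCm38.p6 annotation table (mm10 is this assembly) by distance to the gene body within 100 kb; exons were not used here. The 22 gene lists hold 458 genes, of which 457 matched the table by symbol, and 404 had a shared region.

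Genes were named by a rule: in each direction the 12 regions with the widest gap between the nearest libraries, for each list up to 4 in either direction, and, whatever their values, Nfatc1, Fos, Jun, Myc, Irf8, Brd2, Acp5, Ctsk, Tnfrsf11a, Csf1r and Hexim1. Single further regions at Irf8 and Jun and the genes of the promoter windows were chosen after their values were seen. One further gene named by the rule is not reported here. Members and lists were chosen with earlier results of these data known. Alternatives tried were a q filter (-log10 q of 5 or more), equally long lists, other thresholds of difference and coverage, regions with 1 peak per library, separate ranks at gene ends, genes within 50 kb, a replicate block, and leaving out each library; leaving out libraries for the motif and list shares was added after the data were seen.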

Additional observations from a re-analysis of the deposited data

How the results depend on the processing

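The calls of limma rested on the spread between replicates. Samples with the same replicate number deviated together (correlation of the deviations 0.601 in the fold rank and 0.336 in the width rank, 2 pairs), but the labels do not say what a number marks, so it was not taken as pairing. With the number as a replicate block, limma called 618 regions higher and 43 lower in the fold rank at an adjusted p under 0.05, against 0 and 0 without it, and 0 in the width rank either way. Leaving out 1 library gave 0 to 630 regions higher and 0 to 50 lower in the fold rank, and 0 to 777 and 0 to 34 in the width rank, with the highest counts each time without untreated replicate 2. Filters on q, equal lists and percentiles in place of normal scores gave 0.

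Higher and lower regions (678 and 844) numbered 1052 and 1482 with means 5 points apart, 178 and 115 with 20 points, 340 and 313 with a q filter (-log10 q of 5 or more), and 214 and 168 where each library covered at least 50% of the region, so that under the last 3 settings higher regions outnumbered lower ones. Without 1 library they numbered 1918 to 4457 and 1894 to 4570, since fewer libraries have to agree. The share at gene ends was 6.18% of higher and 25.9% of lower regions with the q filter, beside 35.5% of all, and 6.18% to 8.45% and 12.3% to 17.7% without 1 library. AP-1 letters stood in 10% to 28.8% of windows in higher and 3.09% to 8.33% in lower regions without 1 library, lowest for higher regions without untreated replicate 1.

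Without 1 library the fold rank was above in 26.1% to 35.2% and below in 28.7% to 39.9% of all regions. At negative regulators these shares were 10.3% to 23.8% and 37.3% to 53.2%, and at myeloid genes 17.6% to 34.1% and 35.6% to 40.5%. Causes of these shifts were not tested beyond the smaller number of libraries.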

Other observations

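Some genes held several such regions: of 14286 genes with a shared region, 44 had 2 or more higher and 60 had 2 or more lower ones. Over all assigned regions 1.37% were higher and 1.83% lower, and whether such regions cluster at genes was not tested. There were 6 genes with 3 lower regions each and 1 gene with 3 higher ones, named here after their values were seen. Ly86, which encodes MD-1, a partner of the Toll-like receptor homologue RP105, had 17 shared regions with a median difference of -12.39 points. Ifngr1, a chain of the interferon gamma receptor, had 7 with a median of -13.36 points, and Vsir, the checkpoint receptor VISTA, had 11 with -12.20 points. Gab2 had 7 with -12.06 points, Anp32e, a chaperone of the histone variant H2A.Z, 9 with -6.78 points, and Snx9, an endocytic adaptor, 16 with -4.19 points. St7 had 12 shared regions, 3 of them higher, and a median of 7.13 points. Of 14286 genes with a shared region, 573 had a higher and 760 a lower one, and 41 had both.

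Hairpins of microRNAs overlapped shared regions 172 times, and a few of these overlaps were with lower regions. Beside them, 1.81% of all shared regions were lower, so nothing particular to microRNAs is read from this. That of Mir199b lay in chr2:32317685-32318513, inside Dnm1, with fold percentiles of 29.3 and 29.2 in untreated and 12.8 and 13.6 in RANKL+I-BET replicates 1 and 2. The hairpin of Mir152 lay in chr11:96849506-96850724, over an end of Copz2, with 37.9 and 19.3 against 14.8 and 12.4. Their mature sequences are given from RefSeq (GRCm38.p6), 5′ to 3′, with the seed (bases 2 to 8) in capitals.
mmu-miR-199b-3p: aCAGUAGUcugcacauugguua
mmu-miR-152-3p: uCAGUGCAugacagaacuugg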
